A study of Homo sapiens with 12 samples.

Results

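The genes described here are 42 genes of glucose breakdown and of the response to low oxygen: 4 transporters of glucose or lactate, 17 glycolytic enzymes, 4 regulatory kinases, 12 hypoxia response genes, and 5 genes of the oxygen sensor and its transcription factors. They were chosen by name, as the rows of the count table that carry these symbols, and all 42 were found and all 42 passed the filter on low counts, among 17047 genes tested of 35940 symbols in the table. The cells were ESI017 SOX2::mCitrine human pluripotent stem cells, an embryonic line with a fluorescent reporter on SOX2, grown for 3 days as colonies on micropatterned glass in N2B27, a serum-free medium. Treated colonies had FGF8 at 200 ng/ml in the medium together with WNT3A at 100, 300 or 1000 ng/ml, and were then dissociated with Accutase and sorted by the reporter into SOX2-negative and SOX2-positive cells. Control colonies had the medium alone, and their labels name no gate. At 100 and at 1000 ng/ml each gate has 2 libraries, from separate biological repeats, at 300 ng/ml each gate has 1 library, and the control has 2 libraries.

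FGF8 was present in every treated group and absent from the control, so its part and that of WNT3A in a difference from control cannot be told apart. All groups come from 1 cell line, no label states an oxygen level, and oxygen was not measured here. Because each library is a bulk sample, fewer cells of a type and less RNA per cell cannot be told apart.

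Glycolysis turns glucose into pyruvate. Glucose enters through SLC2A transporters, is trapped by a hexokinase, and is broken down by a chain of enzymes ending in pyruvate kinase. Lactate dehydrogenase can turn pyruvate into lactate, which leaves through SLC16A transporters, while pyruvate dehydrogenase kinases restrain the use of pyruvate inside the mitochondria. When oxygen is scarce, EGLN enzymes no longer mark the HIF1A and EPAS1 proteins for destruction, and these proteins pair with ARNT and switch on many of the genes listed here. Pluripotent stem cells are known for a high rate of glycolysis, and the HIF proteins are controlled mainly by protein breakdown, which RNA counts do not show.

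The DNA that HIF proteins bind contains the letters ACGTG or GCGTG. Promoter windows are shown for 5 members to let the reader see where the ACGTG letters fall: LDHA, BNIP3 and AK4, which were higher in both treated gates than in control and hold them, PDK1, which was also higher in both and does not hold them, and HK2, which holds them and was not called higher. Each window is the 250 bases before the gene's start in RefSeq (GRCh38.p14), 5′ to 3′ on the gene's own strand, with ACGTG and its reverse complement CACGT in capitals. They are chr11:18394313-18394562 for LDHA (plus strand), chr10:131981924-131982173 for BNIP3 (minus strand), chr1:65147302-65147551 for AK4 (plus strand), chr2:172555123-172555372 for PDK1 (plus strand) and chr2:74833877-74834126 for HK2 (plus strand).
LDHA: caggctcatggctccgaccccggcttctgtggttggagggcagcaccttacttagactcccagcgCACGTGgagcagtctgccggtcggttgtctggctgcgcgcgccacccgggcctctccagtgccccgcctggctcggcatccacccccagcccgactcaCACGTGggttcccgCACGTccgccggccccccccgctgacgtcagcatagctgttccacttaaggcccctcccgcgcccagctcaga
BNIP3: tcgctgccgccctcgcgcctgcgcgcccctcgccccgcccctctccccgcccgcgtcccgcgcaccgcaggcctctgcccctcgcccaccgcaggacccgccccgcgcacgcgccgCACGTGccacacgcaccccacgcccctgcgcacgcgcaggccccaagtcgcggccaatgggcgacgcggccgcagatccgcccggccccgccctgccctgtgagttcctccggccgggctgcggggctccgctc
AK4: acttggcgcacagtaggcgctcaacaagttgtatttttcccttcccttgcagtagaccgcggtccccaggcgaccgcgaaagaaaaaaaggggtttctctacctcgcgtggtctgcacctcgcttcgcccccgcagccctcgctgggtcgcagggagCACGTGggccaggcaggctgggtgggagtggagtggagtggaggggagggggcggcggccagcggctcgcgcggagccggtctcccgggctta
PDK1: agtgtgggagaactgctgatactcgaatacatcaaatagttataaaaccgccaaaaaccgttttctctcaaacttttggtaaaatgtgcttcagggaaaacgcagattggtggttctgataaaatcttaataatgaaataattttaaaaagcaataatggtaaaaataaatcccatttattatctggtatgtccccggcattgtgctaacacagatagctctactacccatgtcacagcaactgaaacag
HK2: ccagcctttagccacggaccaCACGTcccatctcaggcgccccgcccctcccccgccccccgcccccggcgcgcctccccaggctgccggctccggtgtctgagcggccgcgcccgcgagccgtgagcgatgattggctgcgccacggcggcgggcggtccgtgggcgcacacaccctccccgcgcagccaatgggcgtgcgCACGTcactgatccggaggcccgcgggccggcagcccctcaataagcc
Counted back from the start, the LDHA window has matches beginning at -185, -184, -87, -86 and -73. In BNIP3 they begin at -134 and -133, in AK4 at -93 and -92, and in HK2 at -229 and -48, and neighbouring positions are the palindrome CACGTG read on both strands. Of the 42 members, 38 had a promoter in the table, and 16 of them (42.1%) held ACGTG on either strand, against 18.5% of all 35116 promoters of this length. GCGTG or its reverse complement CACGC, which can overlap these matches by shared letters, stood in 15 (39.5%) of the members' windows and in 32.2% of all promoters. Among members called higher than control in both treated gates, 6 of 13 windows (46.2%) held ACGTG, against 10 of 25 (40.0%) of the other members' windows. A match is a run of letters and not a shown binding site, and a start used by these cells may lie elsewhere than the one RefSeq gives.

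Values are CPM, the estimated count of a gene per 1000000 estimated counts of its library after TMM adjustment of that total, and the libraries hold 16474856 to 28079048 estimated counts. The 5 values of a gate are always in the order 100 ng/ml repeats 1 and 2, 300 ng/ml, 1000 ng/ml repeats 1 and 2, and the 2 control values are repeats 1 and 2. Means ± SD of a gate cover its 4 libraries at 100 and 1000 ng/ml. Fold changes between groups come from edgeR's quasi-likelihood test, fitted on all genes, with gates averaged over 100 and 1000 ng/ml, and a gene is called higher or lower where its two-sided p, adjusted by Benjamini-Hochberg over all 17047 genes, is under 0.05. A log2 difference is given with a standard error worked back from the test, as its size divided by the square root of the test's F statistic.

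The library of SOX2-negative cells at 100 ng/ml, repeat 2, stood apart from the other SOX2-negative libraries in these genes. It also stood apart beyond them. Its TMM factor, which adjusts a library's total, was 0.899, whereas the other libraries had 0.973 to 1.038. Over all genes its group also had the largest spread between 2 repeats. Why this library differed was not tested. Its glycolytic enzymes summed to 19233 CPM, whereas the other SOX2-negative libraries had 9822 to 10891 CPM, the SOX2-positive libraries 13377 to 16147 CPM and the controls 10172 and 11934 CPM. Its HIF1A level of 122 CPM was the lowest of the 12 libraries. Counts without it are given with each comparison.

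**Figure D1:**
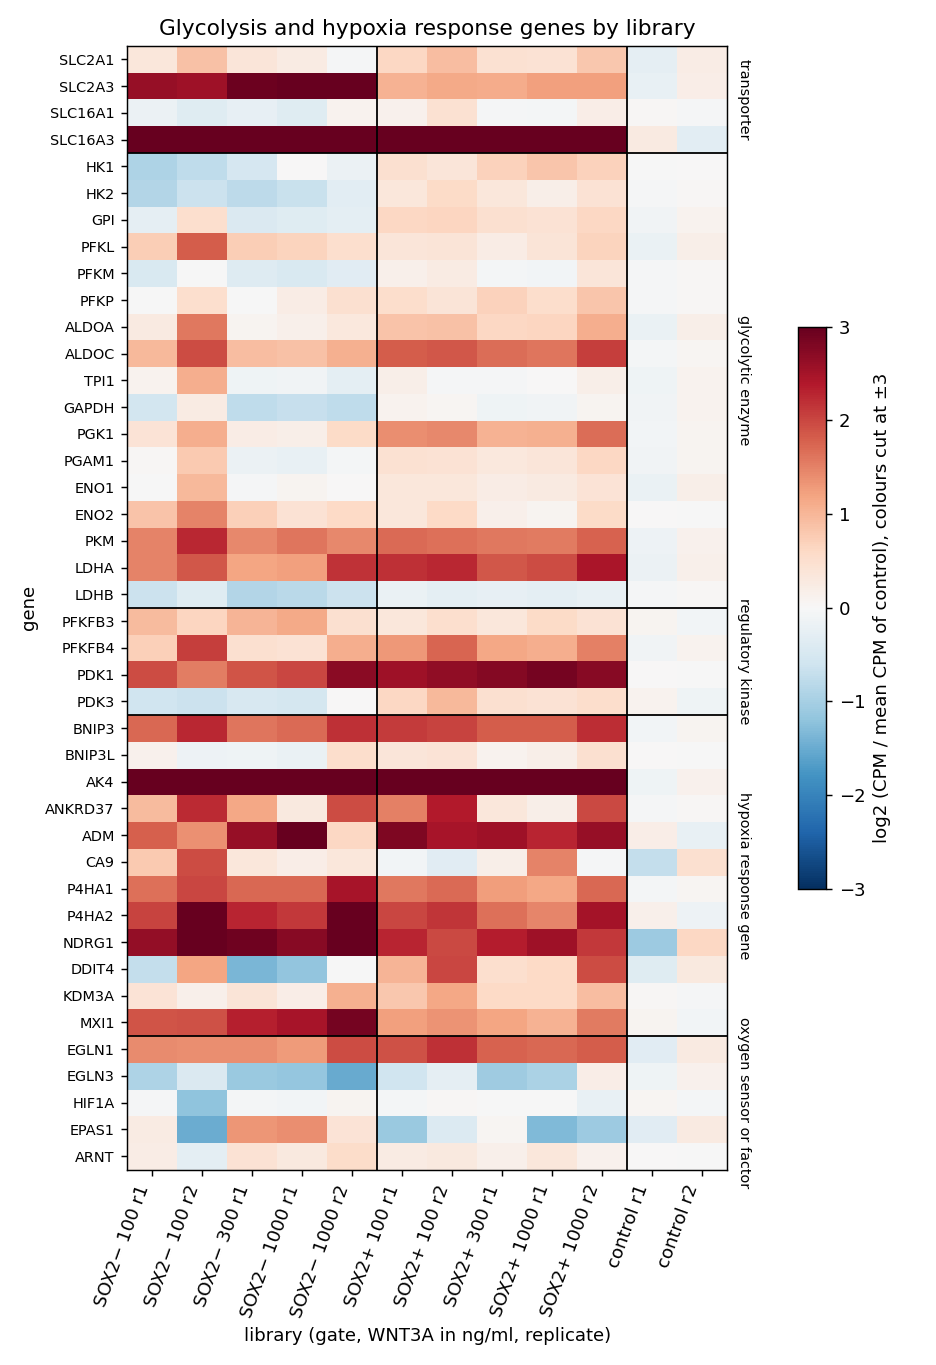
Log2 ratio of a gene's CPM in each of the 12 libraries to its mean CPM in the controls, with colours cut at 3 either way, rows grouped by role and columns by gate, WNT3A dose in ng/ml and repeat (r1, r2), with SOX2− and SOX2+ for the gates. SLC16A3, AK4, NDRG1, PDK1 and LDHA are red in all 10 treated libraries, while HK1, HK2 and LDHB are blue or pale in the SOX2− columns.

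The first comparison set the SOX2-negative against the SOX2-positive fraction of the treated colonies. SOX2-negative cells had more RNA for the high-affinity glucose transporter SLC2A3 and the lactate exporter SLC16A3, and less for both hexokinases, for PGK1, GPI and PFKM of the glycolytic chain, and for the kinases PDK1 and PDK3. In all, 12 of the 42 genes were called, 3 higher and 9 lower. Over all genes 24.0% were called, 12.9% higher and 11.1% lower, so the members' share called higher, 7.14%, lies below that background and their share called lower, 21.4%, above it. Their median log2 difference was -0.26, against 0.01 for all genes. At an unadjusted p under 0.05 there were 22 members, where the share of all genes was 36.1%. The libraries of the gates at 100 and 1000 ng/ml did not overlap for 4 members above and 5 below, against 13.5% and 13.1% of all genes. Without the SOX2-negative library at 100 ng/ml, repeat 2, 20 members were called, 4 higher and 16 lower, and 4408 of all genes, 2325 higher and 2083 lower.

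Among the transporters, SLC2A3 had 1737, 1649, 2184, 2285 and 2239 CPM in SOX2-negative libraries, 584, 629, 616, 666 and 668 CPM in SOX2-positive libraries and 244 and 324 CPM in controls. The 3 groups of libraries did not overlap, and the order was SOX2-negative, SOX2-positive, control. The log2 difference of SOX2-negative from SOX2-positive cells was 1.62 ± 0.13 (3.08-fold, edgeR adjusted p = 1.2e-05). SLC16A3 had 167, 418, 152, 156 and 160.4 CPM in SOX2-negative libraries, 56.5, 45.2, 56.1, 56.0 and 69.1 CPM in SOX2-positive libraries and 6.81 and 4.58 CPM in controls. These groups did not overlap either, and the library that stood apart was the highest of the 12. The log2 difference between the gates was 1.93 ± 0.27 (3.81-fold, edgeR adjusted p = 0.00042), and 1.52 without that library, still called. SLC16A3 shares 482 bases of exon with CSNK1D on the opposite strand, and the counting's strand setting is not given in the sources used here, so reads there are uncertain. CSNK1D itself had 160.2 ± 33.7 CPM in SOX2-negative cells, 141 ± 7.67 CPM in SOX2-positive cells and 176 ± 0.332 CPM in controls and was called in none of the 3 comparisons (edgeR adjusted p = 0.45 between the gates, 0.63 and 0.37 against control).

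The other transporter of each kind was not called between the gates. SLC2A1, the glucose transporter found in most cells, had 183, 262, 183, 170.2 and 139.6 CPM in SOX2-negative libraries, 222, 273, 198, 195 and 250.2 CPM in SOX2-positive libraries and 120.1 and 168 CPM in controls. The gates overlapped. SLC16A1, a lactate and pyruvate carrier, ranged over 361 to 505 CPM in SOX2-negative libraries, 449.7 to 642 CPM in SOX2-positive libraries and 459 to 478 CPM in controls. The ratio of SLC2A3 to SLC2A1 counts was 6.29 to 16.03 in SOX2-negative libraries, 2.31 to 3.41 in SOX2-positive libraries and 1.93 to 2.03 in controls at the doses compared. That of SLC16A3 to SLC16A1 was 0.317 to 1.16 in SOX2-negative libraries, 0.0704 to 0.129 in SOX2-positive libraries and 0.00998 to 0.0143 in controls. Neither ratio overlapped between any pair of these groups, and ratios are descriptions with no test.

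The hexokinases, which trap glucose in the cell as its phosphate, were lower in SOX2-negative cells. HK1 had 60.7, 67.8, 80.3, 116 and 102 CPM in SOX2-negative libraries, 160.4, 147, 186, 204 and 185 CPM in SOX2-positive libraries and 114 and 115 CPM in controls. HK2 had 70.4, 82.4, 74.4, 81.4 and 104 CPM in SOX2-negative libraries, 164, 192, 162, 146 and 173 CPM in SOX2-positive libraries and 126 and 131 CPM in controls. For both genes the gates did not overlap, and for HK2 the controls lay between them. The log2 difference between the gates was -1.04 ± 0.13 for HK1 (edgeR adjusted p = 0.00024) and -1.0003 ± 0.15 for HK2 (edgeR adjusted p = 0.00069). Since they moved alike, the ratio of HK2 to HK1 counts overlapped between the gates, at 0.70 to 1.22 in SOX2-negative and 0.717 to 1.31 in SOX2-positive libraries. Against control HK1 just missed the threshold in SOX2-negative (-0.45 ± 0.16, edgeR adjusted p = 0.065) and SOX2-positive cells (0.59 ± 0.16, 0.054). It was called lower in SOX2-negative and higher in SOX2-positive cells by DESeq2 (adjusted p = 0.019 and 0.0025) and limma (0.048 and 0.034).

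Of the 17 glycolytic enzymes, 13 had a negative log2 difference between the gates and none was called higher. In SOX2-negative cells 5 were called lower, or 29.4% against 11.1% of all genes. Besides the hexokinases these were PGK1, GPI and PFKM. PGK1, which makes ATP from a glycolytic intermediate, had 415, 669, 362, 351 and 467 CPM in SOX2-negative libraries and 813, 852, 639, 649.7 and 1004 CPM in SOX2-positive libraries, with 293 and 331 CPM in controls. It fell by 0.82 ± 0.20 on the log2 scale (edgeR adjusted p = 0.012), and the call was lost without SOX2-negative repeat 1 at 1000 ng/ml (0.052) or SOX2-positive repeat 2 at 1000 ng/ml (0.059). GPI, which turns glucose phosphate into fructose phosphate, had 240.3, 407, 212, 223 and 235 CPM in SOX2-negative libraries, 442, 448, 405, 389.8 and 441 CPM in SOX2-positive libraries and 268 and 308 CPM in controls. The SOX2-negative library at 407 CPM is the one that stood apart, and it alone reached the SOX2-positive values. The difference was -0.66 ± 0.17 (edgeR adjusted p = 0.018), and leaving out 1 of 4 other libraries gave 0.054 to 0.068. PFKM, the muscle form of phosphofructokinase, had 75.9, 103, 79.8, 75.8 and 82.7 CPM in SOX2-negative libraries, 116, 124, 101, 98.0 and 134 CPM in SOX2-positive libraries and 102 and 107 CPM in controls. Its difference of -0.49 ± 0.16 was the smallest among the calls (edgeR adjusted p = 0.047), and it was lost when any of 7 libraries was left out (0.073 to 0.20). PFKM shares 628 bases of exon with SENP1 on the opposite strand, and SENP1 was not called.

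The remaining enzymes were not called between the gates. LDHA, which makes lactate from pyruvate, had 462, 599.8, 373, 385 and 739 CPM in SOX2-negative libraries and 749.5, 791, 599.9, 639 and 906 CPM in SOX2-positive libraries. LDHB, the form that favours pyruvate, had 694, 835, 586, 617 and 685 CPM in SOX2-negative libraries and 943, 881, 906, 884 and 922 CPM in SOX2-positive libraries. LDHB libraries did not overlap between the gates although its test missed the threshold (log2 difference -0.36 ± 0.12, edgeR adjusted p = 0.056). LDHB was called lower in SOX2-negative cells with column totals (edgeR adjusted p = 0.018) and with DESeq2 (adjusted p = 0.016). GAPDH, often used as a reference gene, had 2854, 4892, 2468, 2552 and 2439 CPM in SOX2-negative libraries, 4475, 4297, 3772, 3886 and 4398 CPM in SOX2-positive libraries and 3832 and 4478 CPM in controls. Its highest value was again that of the SOX2-negative library that stood apart, without which GAPDH was called lower (-0.68, edgeR adjusted p = 0.00086). ALDOC, the brain form of aldolase, was likewise called lower without that library (-0.88, edgeR adjusted p = 0.0016), against -0.59 ± 0.21 with it (0.068). With the biological repeat as a block in the model, ALDOC (0.036), GAPDH (0.046) and LDHA (0.034) were called lower in SOX2-negative cells. ALDOC and GAPDH were also called lower with column totals (edgeR adjusted p = 0.029 and 0.019) and with DESeq2 (adjusted p = 0.037 and 0.044). Pyruvate kinase PKM differed by 0.06 ± 0.17 between the gates (edgeR adjusted p = 0.84) and ENO1 by -0.04 ± 0.19 (0.92). Over the 4 libraries of each gate, TPI1 averaged 847 ± 413 CPM in SOX2-negative and 727 ± 58.1 CPM in SOX2-positive cells, and PGAM1 919 ± 316 CPM in SOX2-negative and 1113 ± 88.8 CPM in SOX2-positive cells. ALDOA averaged 1132 ± 622 CPM in SOX2-negative and 1266 ± 156 CPM in SOX2-positive cells, and PFKP 97.7 ± 15.9 CPM in SOX2-negative and 118 ± 15.4 CPM in SOX2-positive cells. The large SDs of the SOX2-negative averages come with the library that stood apart, which had 1457 CPM of TPI1 and 2063 CPM of ALDOA.

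**Figure D2:**
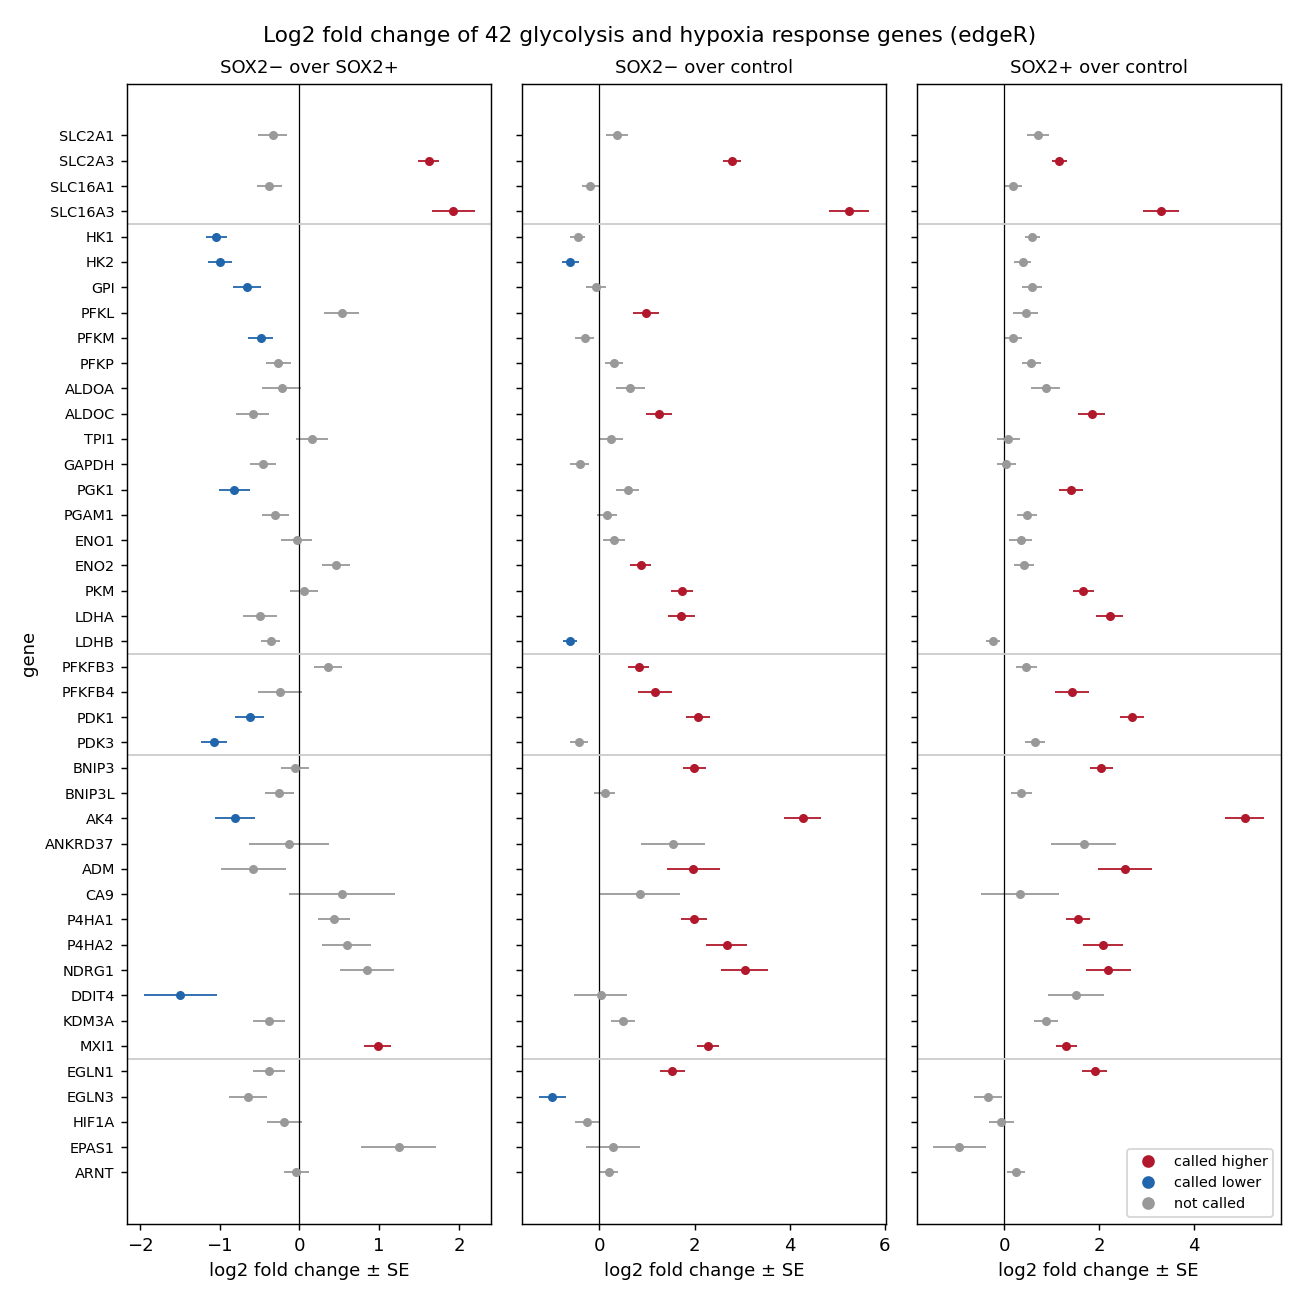
Log2 fold change of each of the 42 genes with its standard error in 3 comparisons, SOX2-negative over SOX2-positive, SOX2-negative over control and SOX2-positive over control, with called genes marked. Against control the called genes lie to the right of 0 in both gates except HK2, LDHB and EGLN3 in SOX2-negative cells, while between the gates 9 of the 12 called genes lie to the left.

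The pyruvate dehydrogenase kinases among the members, PDK1 and PDK3, were both lower in SOX2-negative cells. PDK3 had 34.1, 33.3, 37.5, 35.9 and 52.5 CPM in SOX2-negative libraries, 80.2, 101, 72.8, 70.1 and 75.4 CPM in SOX2-positive libraries and 56.2 and 47.9 CPM in controls. The gates did not overlap, and the difference was -1.07 ± 0.17 on the log2 scale (edgeR adjusted p = 0.00086). PDK1 had 48.2, 35.7, 46.2, 49.7 and 80.2 CPM in SOX2-negative libraries, 72.1, 78.4, 83.8, 90.6 and 81.6 CPM in SOX2-positive libraries and 12.4 and 12.4 CPM in controls. One SOX2-negative library, repeat 2 at 1000 ng/ml, reached the SOX2-positive range. Its difference of -0.62 ± 0.18 was called (edgeR adjusted p = 0.028), and leaving out any of 7 libraries took it to 0.051 to 0.098. PFKFB3 and PFKFB4, which make or remove the sugar phosphate that switches phosphofructokinase on, were not called between the gates.

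Of the 12 hypoxia response genes, 3 were called between the gates, 1 higher (8.33%) and 2 lower (16.7%) in SOX2-negative cells. Over all genes these shares were 12.9% and 11.1%, so the counts lie near the background. MXI1, an antagonist of MYC, had 41.7, 41.8, 56.3, 61.8 and 81.6 CPM in SOX2-negative libraries, 26.3, 28.3, 25.2, 23.0 and 33.2 CPM in SOX2-positive libraries and 11.8 and 10.6 CPM in controls. The 3 groups did not overlap, and the log2 difference between the gates was 0.98 ± 0.17 (edgeR adjusted p = 0.0017). AK4, an adenylate kinase of the mitochondrial matrix, had 88.5, 81.6, 70.1, 59.0 and 90.7 CPM in SOX2-negative libraries and 159.5, 109.8, 200.3, 199 and 91.0 CPM in SOX2-positive libraries. In SOX2-positive cells repeat 1 was higher than repeat 2 at both doses. AK4 was called lower in SOX2-negative cells (-0.81 ± 0.25, edgeR adjusted p = 0.038), but not with the repeat as a block (0.054) or without any of 6 libraries (0.058 to 0.16). DDIT4, an inhibitor of the growth kinase complex mTOR, had 44.1, 165, 28.1, 31.9 and 72.2 CPM in SOX2-negative libraries, 148, 289.8, 104, 111 and 284 CPM in SOX2-positive libraries and 56.2 and 89.0 CPM in controls. Repeat 2 was higher than repeat 1 in every group that has both, and the gates overlapped. The DDIT4 difference was -1.49 ± 0.46 (edgeR adjusted p = 0.036), with 0.13 to 0.15 when 1 of 3 libraries was left out and 0.052 with identifiers kept apart.

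The sensor and factor genes showed no call between the gates with all libraries in the model. HIF1A had 274, 122, 272, 266 and 299 CPM in SOX2-negative libraries, 269, 288, 279, 281 and 241 CPM in SOX2-positive libraries and 291 and 272 CPM in controls. Apart from the library at 122 CPM these values span 241 to 299 CPM, and the log2 difference between the gates was -0.19 ± 0.22 (edgeR adjusted p = 0.57), or 0.04 without that library. When the other 100 ng/ml repeat was left out instead, so that this library alone stood for its dose, HIF1A was called lower in SOX2-negative cells than in SOX2-positive cells (-0.55, edgeR adjusted p = 0.0048) and than in control (-0.62, 0.0063). EPAS1, the second HIF subunit, had 2.27, 0.684, 4.77, 5.05 and 2.56 CPM in SOX2-negative libraries, 0.893, 1.44, 2.00, 0.766 and 0.905 CPM in SOX2-positive libraries and 1.52 and 2.31 CPM in controls. Its log2 difference between the gates was 1.24 ± 0.47 (edgeR adjusted p = 0.084), and it was called higher in SOX2-negative cells without the library at 0.684 CPM, the one that stood apart (1.56, 0.022), and with no filter on low counts (0.045). EGLN3, an oxygen sensor, was -0.65 ± 0.24 (edgeR adjusted p = 0.081), and it was called lower in SOX2-negative cells without that library (0.046), without SOX2-positive repeat 1 at 1000 ng/ml (0.014), with no filter (0.0042), with column totals (0.047) and with DESeq2 (0.042). ARNT, their common partner, averaged 45.4 ± 10.3 CPM in SOX2-negative cells, 46.2 ± 2.80 CPM in SOX2-positive cells and 38.9 ± 0.191 CPM in controls.

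Each treated gate was then compared with the untreated colonies. Both gates had more RNA than control for the transporters SLC2A3 and SLC16A3, the late enzymes PKM and LDHA, the kinase PDK1 and most hypoxia response genes. The 2 comparisons share the control libraries and are given side by side. In SOX2-negative cells 21 members were called, 18 higher and 3 lower, against a background of 22.5% of all genes called, 12.4% higher and 10.1% lower. In SOX2-positive cells 16 were called, all higher, against 7.81% of all genes, 4.65% higher and 3.17% lower. The members' shares called higher were thus 42.9% in SOX2-negative and 38.1% in SOX2-positive cells, above both backgrounds. Their median log2 difference from control was 0.62 in SOX2-negative and 0.67 in SOX2-positive cells, with 0.03 and 0.01 over all genes. At an unadjusted p under 0.05 there were 24 members in SOX2-negative cells (34.8% of all genes) and 26 in SOX2-positive cells (21.0% of all genes). Libraries did not overlap with the controls for 21 members above and 3 below in SOX2-negative cells (21.0% and 20.0% of all genes) and for 33 above and 2 below in SOX2-positive cells (22.5% and 22.3% of all genes). Leaving out control repeat 1 or 2 reduced the calls to 12 and 12 in SOX2-negative cells, with 1857 and 1749 among all genes, and to 7 and 9 in SOX2-positive cells, with 440 and 250 among all genes. Without the SOX2-negative library that stood apart the counts were 23 in SOX2-negative cells, with 4700 among all genes, and 24 in SOX2-positive cells, with 2439 among all genes.

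By role, 2 of 4 transporters, 5 of 17 enzymes, 3 of 4 regulatory kinases, 7 of 12 hypoxia response genes and 1 of 5 sensor and factor genes were called higher than control in SOX2-negative cells. In SOX2-positive cells 2 transporters, 4 enzymes, 2 kinases, 7 hypoxia response genes and 1 sensor gene were called higher. All 12 hypoxia response genes had a positive log2 difference in both gates, with medians of 1.98 in SOX2-negative and 1.62 in SOX2-positive cells. Of all 17047 genes, 8811 were positive in SOX2-negative and 8615 in SOX2-positive cells. The smallest of the 12 were DDIT4 in SOX2-negative cells (0.02 ± 0.55) and CA9 in SOX2-positive cells (0.33 ± 0.83). Both changed sign in some runs with 1 library left out. For the 17 enzymes the medians were 0.31 in SOX2-negative and 0.47 in SOX2-positive cells.

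AK4 had the largest log2 difference from control of the SOX2-positive calls. Against 3.76 and 4.47 CPM in controls and the treated values given above, it was 4.27 ± 0.39 higher in SOX2-negative cells (19.3-fold, edgeR adjusted p = 3.4e-05) and 5.08 ± 0.41 higher in SOX2-positive cells (33.8-fold, edgeR adjusted p = 0.00014). AK4 has processed pseudogene copies whose rows held up to 8.27% of the summed counts in a library. SLC16A3 was 5.24 ± 0.43 higher than control in SOX2-negative cells (37.9-fold, edgeR adjusted p = 1.7e-05) and 3.31 ± 0.39 higher in SOX2-positive cells (9.95-fold, edgeR adjusted p = 0.00089). SLC2A3 was 2.79 ± 0.18 higher in SOX2-negative cells (edgeR adjusted p = 5.9e-06) and 1.16 ± 0.17 higher in SOX2-positive cells (edgeR adjusted p = 0.0024, or 0.051 without control repeat 1). For both transporters every treated library lay above both controls. SLC2A1 was not called against control (edgeR adjusted p = 0.28 in SOX2-negative and 0.097 in SOX2-positive cells). In SOX2-positive cells it was called higher with DESeq2 (adjusted p = 0.027) and with no filter on low counts (edgeR adjusted p = 0.025).

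PKM and LDHA, which act at the end of the pathway, were higher than control in both gates. PKM had 1309, 2251, 1263, 1425 and 1272 CPM in SOX2-negative libraries, 1522, 1464, 1385, 1363 and 1594 CPM in SOX2-positive libraries and 420.2 and 512 CPM in controls, so that all treated libraries lay above both controls. It was 1.73 ± 0.23 higher on the log2 scale in SOX2-negative cells (edgeR adjusted p = 0.00039) and 1.67 ± 0.23 higher in SOX2-positive cells (0.0021). LDHA stood at 147 and 183 CPM in controls and was 1.72 ± 0.28 higher in SOX2-negative cells (edgeR adjusted p = 0.0015) and 2.22 ± 0.29 higher in SOX2-positive cells (0.0016). LDHB went the other way, at 1048 and 1107 CPM in controls, above all treated libraries, and was called lower in SOX2-negative cells (-0.61 ± 0.15, edgeR adjusted p = 0.013, or 0.087 and 0.14 without control repeat 1 or 2) but not in SOX2-positive cells (-0.25 ± 0.15, 0.39). The ratio of LDHB to LDHA counts was therefore 0.927 to 1.60 in SOX2-negative and 1.02 to 1.38 in SOX2-positive libraries, against 6.04 to 7.11 in controls.

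ALDOC had 42.02, 83.6, 41.1, 39.4 and 44.7 CPM in SOX2-negative libraries, 75.7, 78.1, 69.0, 65.2 and 90.2 CPM in SOX2-positive libraries and 20.7 and 22.3 CPM in controls. It was higher than control by 1.26 ± 0.28 in SOX2-negative cells (edgeR adjusted p = 0.0078) and by 1.85 ± 0.28 in SOX2-positive cells (0.0032), calls that were lost when either control library was left out. PGK1 was called higher than control in SOX2-positive cells (1.41 ± 0.26, edgeR adjusted p = 0.0076), and was not called in SOX2-negative cells (0.59 ± 0.25, 0.11). In SOX2-negative cells it was called with the repeat as a block (edgeR adjusted p = 0.048), with no filter on low counts (0.037) and without SOX2-negative repeat 1 at 100 ng/ml (0.018). The PGK1 call in SOX2-positive cells was also lost when either control library was left out (0.10 and 0.090). PFKL, the liver form of phosphofructokinase, had 282, 594, 281, 269.97 and 241 CPM in SOX2-negative libraries, 217, 221, 198, 222 and 269 CPM in SOX2-positive libraries and 149 and 191 CPM in controls. The neuronal enolase ENO2 had 270.5, 419, 244, 199.7 and 223 CPM in SOX2-negative libraries, 187, 224, 164, 158 and 220.0 CPM in SOX2-positive libraries and 150.2 and 146 CPM in controls. PFKL (0.98 ± 0.28, edgeR adjusted p = 0.027) and ENO2 (0.87 ± 0.22, 0.019) were called in SOX2-negative cells, and both calls were lost when either control library was left out. At 1000 ng/ml, leaving out SOX2-negative repeat 1 also ended the PFKL call (log2 difference 0.92), and repeat 2 that of ENO2 (0.81). HK2 was called lower than control in SOX2-negative cells (-0.61 ± 0.18, edgeR adjusted p = 0.031). That call was also lost without control repeat 1 or 2 (log2 difference -0.64 and -0.58). The same held without SOX2-negative repeat 1 at 1000 ng/ml (-0.54) or either SOX2-positive library at 100 ng/ml (-0.61 each).

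PDK1 was 2.08 ± 0.25 higher than control in SOX2-negative cells (edgeR adjusted p = 0.00018) and 2.70 ± 0.25 higher in SOX2-positive cells (0.00035). PDK3 did not pass in either (-0.43 ± 0.20, 0.15, and 0.64 ± 0.21, 0.091, by the same test). The ratio of PDK3 to PDK1 counts stood at 0.654 to 0.933 in SOX2-negative and 0.774 to 1.29 in SOX2-positive libraries, against 3.87 to 4.53 in controls. PFKFB3 had 72.4, 58.8, 75.7, 82.9 and 52.1 CPM in SOX2-negative libraries, 48.0, 53.0, 47.4, 55.5 and 51.0 CPM in SOX2-positive libraries and 39.8 and 35.3 CPM in controls. PFKFB4 had 35.0, 88.8, 29.4, 28.7 and 44.7 CPM in SOX2-negative libraries, 51.9, 70.6, 47.2, 45.0 and 60.0 CPM in SOX2-positive libraries and 19.6 and 22.7 CPM in controls. All treated libraries of both genes lay above the controls. PFKFB3 was called in SOX2-negative cells (0.82 ± 0.22, edgeR adjusted p = 0.021), and PFKFB4 in SOX2-negative cells (1.17 ± 0.36, 0.038) and SOX2-positive cells (1.42 ± 0.36, 0.038). These 3 calls were lost when either control library was left out, and those of PFKFB4 also with identifiers kept apart (0.053 in SOX2-negative and 0.057 in SOX2-positive cells). Both PFKFB4 calls were lost in most runs with 1 library left out, including each run without a SOX2-positive library. In these runs its difference was 0.76 to 1.42 in SOX2-negative and 1.30 to 1.54 in SOX2-positive cells. The PFKFB3 call was also lost without SOX2-negative repeat 1 at 1000 ng/ml (log2 difference 0.62).

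**Figure D3:**
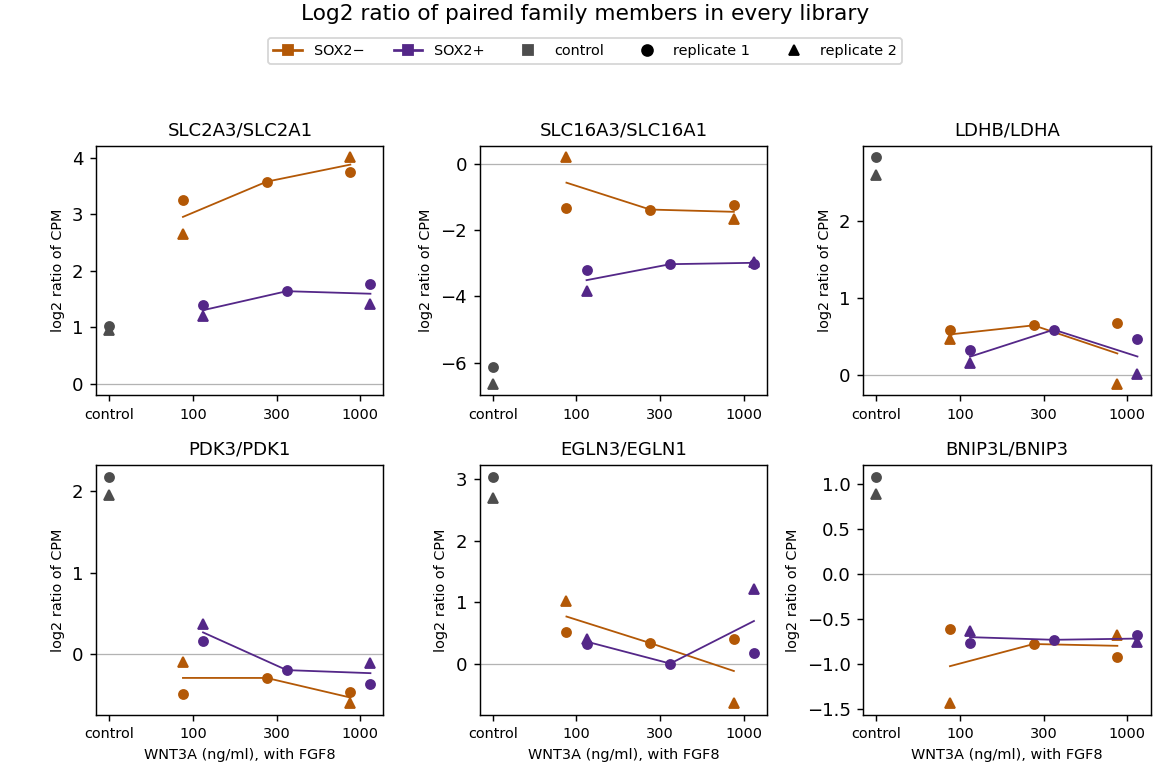
Log2 ratio of the CPM of related genes for 6 pairs, against WNT3A dose in ng/ml, 1 point per library (circles repeat 1, triangles repeat 2), with lines through the mean at each dose for SOX2− and SOX2+ cells and grey points for control. The ratios LDHB/LDHA, PDK3/PDK1, EGLN3/EGLN1 and BNIP3L/BNIP3 are high in both controls and low in every treated library, while SLC2A3/SLC2A1 and SLC16A3/SLC16A1 are highest in SOX2-negative libraries.

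Among the hypoxia response genes, BNIP3, a receptor that marks mitochondria for removal, had 131, 189, 121, 128 and 179.8 CPM in SOX2-negative libraries, 169, 160.2, 139.6, 139.6 and 184 CPM in SOX2-positive libraries and 37.5 and 41.6 CPM in controls. The gates overlapped each other and lay above both controls. BNIP3 was 1.99 ± 0.24 higher than control in SOX2-negative cells (edgeR adjusted p = 0.00021) and 2.05 ± 0.24 higher in SOX2-positive cells (0.00093). Pseudogene rows of BNIP3 held 1.58% to 16.9% of the summed counts in a library. Its relative BNIP3L, with the same role, was not called in either gate, at 84.0 ± 20.8 CPM in SOX2-negative cells, 99.9 ± 9.34 CPM in SOX2-positive cells and 77.8 ± 1.62 CPM in controls.

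P4HA1 and P4HA2, subunits of the enzyme that hydroxylates proline in collagen, were both higher in both gates. P4HA1 had 68.1, 86.0, 71.2, 71.1 and 120.1 CPM in SOX2-negative libraries, 64.3, 69.8, 51.7, 48.4 and 71.5 CPM in SOX2-positive libraries and 20.8 and 22.3 CPM in controls. P4HA2 had 24.8, 53.4, 29.5, 26.2 and 50.1 CPM in SOX2-negative libraries, 24.5, 26.9, 19.2, 16.8 and 34.2 CPM in SOX2-positive libraries and 6.71 and 5.42 CPM in controls. Both genes lay above control in all 10 treated libraries. P4HA1 was 1.99 ± 0.27 and P4HA2 2.68 ± 0.44 higher than control in SOX2-negative cells (edgeR adjusted p = 0.00042 and 0.0014). In SOX2-positive cells they were 1.56 ± 0.26 and 2.08 ± 0.42 higher (edgeR adjusted p = 0.0054 and 0.014), and these 2 calls were lost when either control library was left out.

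NDRG1, a stress-responsive gene of differentiating cells, had 8.80, 16.9, 10.7, 9.31 and 13.0 CPM in SOX2-negative libraries, 6.89, 5.53, 7.18, 8.20 and 6.11 CPM in SOX2-positive libraries and 0.661 and 2.16 CPM in controls. The groups did not overlap, although the gates were not called different (0.85 ± 0.34, edgeR adjusted p = 0.095). NDRG1 was 3.05 ± 0.49 higher than control in SOX2-negative cells (edgeR adjusted p = 0.0013) and 2.20 ± 0.48 higher in SOX2-positive cells (0.019, or 0.14 without control repeat 1 and 0.053 without SOX2-positive repeat 1 at 100 ng/ml). Without control repeat 1 the differences from control were 2.47 in SOX2-negative and 1.62 in SOX2-positive cells, and without control repeat 2 they were 4.17 in SOX2-negative and 3.32 in SOX2-positive cells. ADM, which encodes the vessel-widening peptide adrenomedullin, had 21.1, 15.7, 37.4, 52.7 and 9.40 CPM in SOX2-negative libraries, 42.4, 33.6, 35.6, 29.7 and 37.1 CPM in SOX2-positive libraries and 6.96 and 5.20 CPM in controls. ADM varied more among SOX2-negative than among SOX2-positive libraries, with SDs of 19.2 and 5.42 CPM. It was 1.98 ± 0.55 higher than control in SOX2-negative cells (edgeR adjusted p = 0.027) and 2.55 ± 0.57 higher in SOX2-positive cells (0.021), and both calls were lost when either control library was left out. The SOX2-positive call was also lost without SOX2-positive repeat 1 at 100 ng/ml (log2 difference 2.46). MXI1 was 2.29 ± 0.23 higher in SOX2-negative cells (edgeR adjusted p = 6.4e-05) and 1.31 ± 0.22 higher in SOX2-positive cells (0.0053, or 0.059 and 0.11 without control repeat 1 or 2).

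The other 4 hypoxia response genes were not called against control. CA9, the cell-surface carbonic anhydrase widely used as a mark of low oxygen, had 0.718, 1.62, 0.536, 0.479 and 0.536 CPM in SOX2-negative libraries, 0.397, 0.330, 0.475, 1.18 and 0.407 CPM in SOX2-positive libraries and 0.254 and 0.586 CPM in controls. All 12 values of CA9 lie at or below 1.62 CPM and the groups overlap. CA9 shares exon with ARHGEF39 on the opposite strand, which had many more counts, so even this level is uncertain. ARHGEF39 itself was called higher in SOX2-negative than in SOX2-positive cells (0.43 ± 0.14, edgeR adjusted p = 0.045). Against control it was not called (0.055 in SOX2-negative and 0.84 in SOX2-positive cells). ANKRD37, an ankyrin repeat gene, averaged 3.55 ± 1.97 CPM in SOX2-negative cells, 3.96 ± 2.10 CPM in SOX2-positive cells and 1.21 ± 0.0537 CPM in controls, and it overlaps exons of UFSP2. The histone demethylase KDM3A averaged 76.3 ± 25.0 CPM in SOX2-negative cells, 99.0 ± 15.9 CPM in SOX2-positive cells and 53.5 ± 1.32 CPM in controls. DDIT4 differed from control by 0.02 ± 0.55 in SOX2-negative cells and by 1.52 ± 0.59 in SOX2-positive cells (edgeR adjusted p = 0.99 and 0.16). With the repeat as a block DDIT4 was called higher in SOX2-positive cells (0.0083).

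Of the oxygen sensors, EGLN1 had 30.4, 30.2, 30.1, 27.8 and 44.7 CPM in SOX2-negative libraries, 43.0, 51.9, 39.2, 38.1 and 40.6 CPM in SOX2-positive libraries and 9.10 and 13.8 CPM in controls. EGLN1 was 1.53 ± 0.26 higher than control in SOX2-negative cells (edgeR adjusted p = 0.0018) and 1.91 ± 0.26 higher in SOX2-positive cells (0.0021). EGLN3 had 43.4, 61.4, 38.0, 36.9 and 28.6 CPM in SOX2-negative libraries, 54.0, 68.3, 39.3, 42.9 and 94.7 CPM in SOX2-positive libraries and 74.8 and 89.8 CPM in controls. It was called lower than control in SOX2-negative cells (-0.99 ± 0.29, edgeR adjusted p = 0.032, or 0.098 and 0.23 without control repeat 1 or 2 and 0.084 without SOX2-negative repeat 2 at 1000 ng/ml) and not in SOX2-positive cells (-0.34 ± 0.29, 0.57). The EGLN3 to EGLN1 ratio of counts was 0.641 to 2.03 in SOX2-negative and 1.13 to 2.33 in SOX2-positive libraries, against 6.50 to 8.22 in controls. HIF1A (edgeR adjusted p = 0.55 in SOX2-negative and 0.94 in SOX2-positive cells), EPAS1 (0.77 in SOX2-negative and 0.37 in SOX2-positive cells) and ARNT (0.50 in SOX2-negative and 0.53 in SOX2-positive cells) were not called against control.

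The members called higher than control in both gates numbered 15: SLC2A3, SLC16A3, ALDOC, PKM, LDHA, PFKFB4, PDK1, BNIP3, AK4, ADM, P4HA1, P4HA2, NDRG1, MXI1 and EGLN1. Between the gates 3 of them were higher in SOX2-negative cells (SLC2A3, SLC16A3 and MXI1), 2 were lower (AK4 and PDK1), and the rest were not called.

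The third question was whether the WNT3A dose mattered within a gate. At 1000 against 100 ng/ml no member and no other gene was called by edgeR in SOX2-negative cells, in SOX2-positive cells, or for the difference of the dose effect between the gates. At an unadjusted p under 0.05 there were 11, 0 and 2 members, against 18.2%, 1.72% and 7.91% of all genes. DESeq2 called 1 member in SOX2-negative cells and none in the others, with 411, 5 and 16 genes in all, and limma called none. Each dose has 2 libraries a gate, and SOX2-negative repeat 2 at 100 ng/ml is the library that stood apart. Leaving out SOX2-negative repeat 1 at 100 ng/ml, so that only this library stands for its dose, gave 19 calls among the members, 6 higher and 13 lower, and 5739 among all genes. Without the library that stood apart no member was called in either gate or for the difference, and the calls among all genes were 1, 0 and 1.

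The SOX2-negative values can still be set side by side by dose. HK1 averaged 64.2 ± 5.01 CPM at 100 ng/ml, 80.3 CPM in the 1 library at 300 ng/ml and 109 ± 10.05 CPM at 1000 ng/ml in SOX2-negative cells (SD, n = 2 at 100 and at 1000 ng/ml). In SOX2-negative cells MXI1 and SLC2A3 likewise had their lowest values at 100 ng/ml in both repeats, their 300 ng/ml library next, and both 1000 ng/ml libraries above. The log2 difference of 1000 from 100 ng/ml was 0.77 ± 0.19 for HK1 (edgeR adjusted p = 0.22), 0.78 ± 0.24 for MXI1 (0.25) and 0.42 ± 0.18 for SLC2A3 (0.27), none of which passed. The share of all genes in this order was not counted. PDK1 had a positive difference too (0.63 ± 0.25, edgeR adjusted p = 0.26), but its libraries did not follow the order. Most glycolytic enzymes had the other sign in SOX2-negative cells, with 13 of 17 negative and a median log2 difference of -0.50. TPI1 (-0.87 ± 0.28), ALDOA (-0.83 ± 0.35), PFKL (-0.78 ± 0.31), ENO2 (-0.71 ± 0.25), GAPDH (-0.63 ± 0.23), PGAM1 (-0.60 ± 0.24) and the transporter SLC16A3 (-0.89 ± 0.37) were at an unadjusted p under 0.05, and none passed (edgeR adjusted p = 0.25 to 0.26). In each of these 7 the library that stood apart, at 100 ng/ml, was the highest of the SOX2-negative libraries. In SOX2-positive cells HK1 came close to the order of rising dose, with the 300 ng/ml library at 186 CPM just above repeat 2 at 1000 ng/ml (185 CPM). There MXI1 and SLC2A3 did not follow that order, SLC2A3 with 616 CPM at 300 ng/ml and 629 CPM in repeat 2 at 100 ng/ml.

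**Figure D4:**
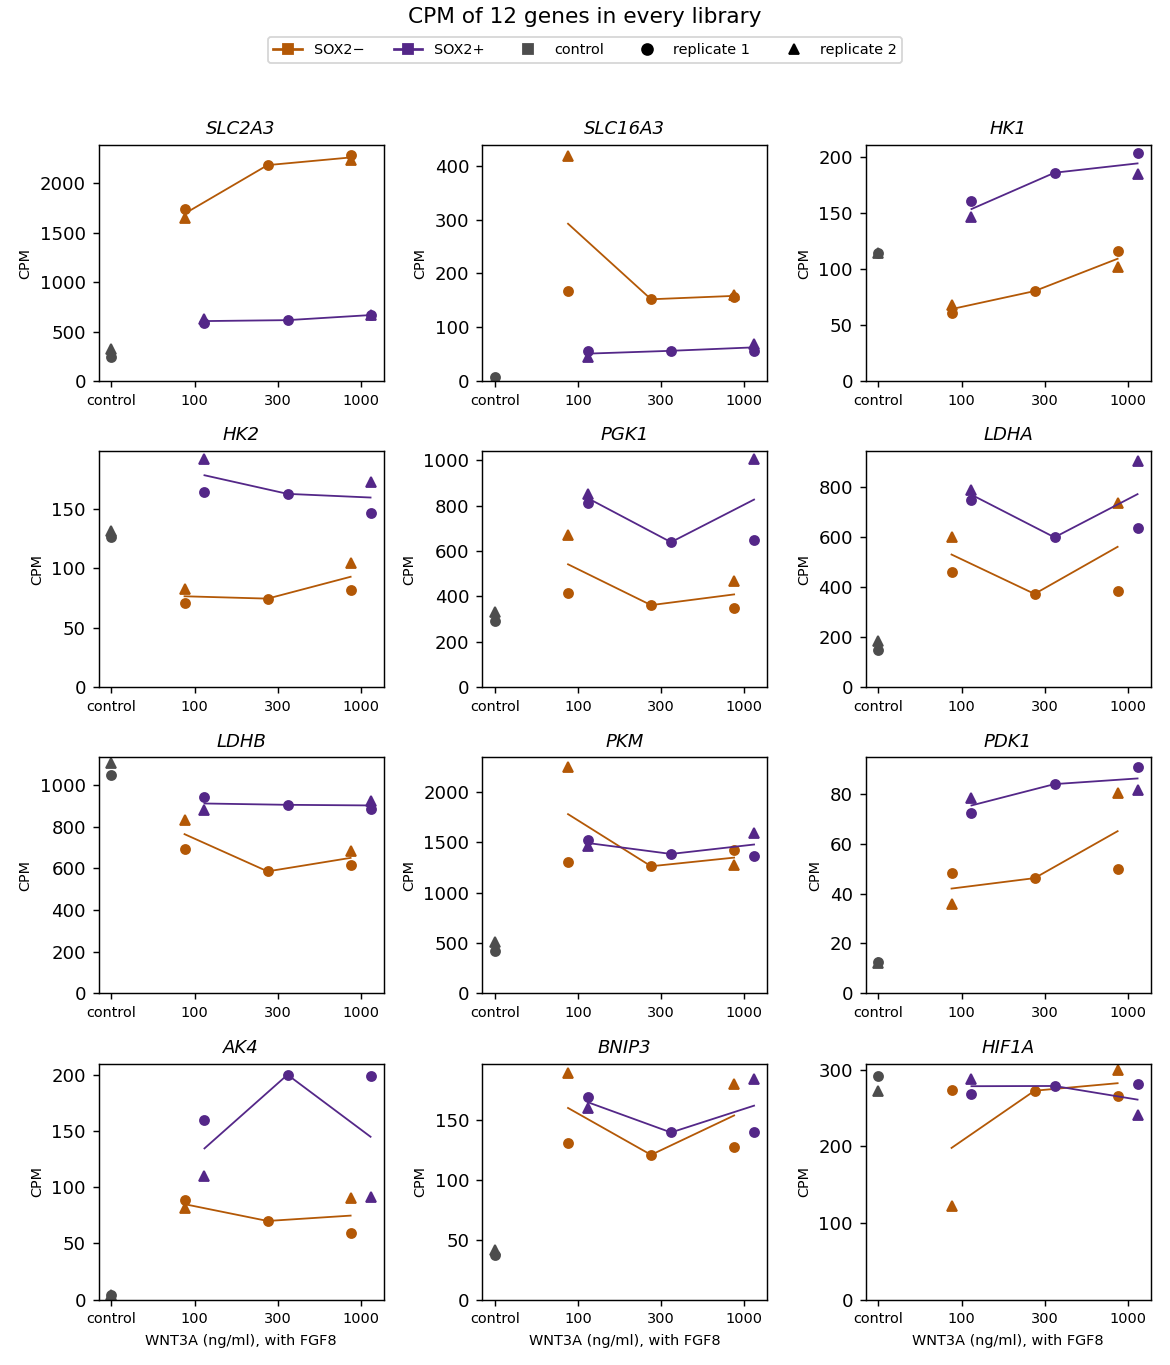
CPM of 12 of the genes in the control and at 100, 300 and 1000 ng/ml WNT3A, 1 point per library (circles repeat 1, triangles repeat 2), with lines through the mean at each dose for SOX2− and SOX2+ cells. HK1 and SLC2A3 in SOX2-negative libraries are lower at 100 than at 1000 ng/ml, and HIF1A shows 1 low SOX2-negative library at 100 ng/ml.

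Other genes of the same pathways were counted from lists by role. For comparison with these counts, 12.4% of all genes were called higher and 10.1% lower than control in SOX2-negative cells. In SOX2-positive cells the shares were 4.65% and 3.17%. Between the gates 12.9% of all genes were called higher and 11.1% lower in SOX2-negative cells. Among 26 other HIF targets, 6 were higher and 2 lower than control in SOX2-negative cells, and 9 higher and 1 lower in SOX2-positive cells. Between the gates 3 were higher and 7 lower in SOX2-negative cells. VEGFA, the vessel growth factor, averaged 225 ± 49.5 CPM in SOX2-negative cells, 63.0 ± 6.81 CPM in SOX2-positive cells and 37.2 ± 2.14 CPM in controls. LOX, which cross-links collagen, averaged 19.8 ± 3.11 CPM in SOX2-negative cells, 2.26 ± 0.743 CPM in SOX2-positive cells and 0.503 ± 0.0649 CPM in controls. Both were higher in SOX2-negative than in SOX2-positive cells (1.82 ± 0.15 and 3.15 ± 0.26 on the log2 scale, edgeR adjusted p = 1.4e-05 each) and higher than control in both gates. ANGPTL4 was the third called higher in SOX2-negative than in SOX2-positive cells (1.83 ± 0.49, edgeR adjusted p = 0.021). STC2 (-2.16 ± 0.18), IGFBP3 (-1.89 ± 0.29), STC1 (-1.57 ± 0.27), FAM162A (-1.24 ± 0.25), BHLHE41 (-2.35 ± 0.67), KDM4C (-1.16 ± 0.19) and TFRC (-0.83 ± 0.15) were lower in SOX2-negative than in SOX2-positive cells. BHLHE40, a circadian and stress repressor, was higher than control by 3.50 ± 0.47 in SOX2-negative and 3.18 ± 0.46 in SOX2-positive cells (edgeR adjusted p = 0.00038 and 0.0025). RORA, a nuclear receptor, was 1.06 ± 0.34 higher than control in SOX2-negative and 1.58 ± 0.35 higher in SOX2-positive cells (edgeR adjusted p = 0.048 and 0.021), and INHA, an inhibin subunit, was 2.18 ± 0.68 higher in SOX2-negative cells (0.042). BHLHE41 (3.99 ± 0.99), FAM162A (1.73 ± 0.33), STC1 (1.73 ± 0.35) and KDM4C (1.00 ± 0.24) were called higher than control in SOX2-positive cells (edgeR adjusted p = 0.010 to 0.034). STC2 was lower than control in SOX2-negative cells (-1.69 ± 0.21, edgeR adjusted p = 0.00023), and IGFBP3 was lower in SOX2-negative (-3.54 ± 0.34, 3.9e-05) and SOX2-positive cells (-1.64 ± 0.32, 0.012). PGM1, the remaining call against control in both gates, is described with the glycolysis genes, whose list also holds it.

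Glycogen enters glycolysis through PGM1, which averaged 194 ± 30.8 CPM in SOX2-negative cells, 185 ± 61.2 CPM in SOX2-positive cells and 12.02 ± 2.05 CPM in controls. PGM1 was 4.01 ± 0.28 higher than control in SOX2-negative cells and 3.90 ± 0.28 higher in SOX2-positive cells (edgeR adjusted p = 7.7e-06 and 7.7e-05), and the gates were not called different (0.11 ± 0.18, 0.70). It was the only one of 18 further glycolysis and gluconeogenesis genes tested that was called higher than control in either gate, and FBP1, an enzyme of gluconeogenesis, was lower than control in SOX2-negative cells (-2.45 ± 0.77, edgeR adjusted p = 0.043). Between the gates 1 of these 18 was higher in SOX2-negative cells (ADPGK) and 3 were lower (FBP1, PFKFB2 and PGM2). Of 10 genes of pyruvate entry into mitochondria, MPC2, a subunit of the carrier, was higher in SOX2-negative than in SOX2-positive cells (0.81 ± 0.21, edgeR adjusted p = 0.018), and PDHB was higher in SOX2-negative cells than in control (0.64 ± 0.18, 0.028). No other glucose transporter of 5 tested was called in any of the 3 comparisons. Of 6 pentose phosphate genes, TKT was lower in SOX2-negative than in SOX2-positive cells (-0.56 ± 0.17, edgeR adjusted p = 0.038) and PGD was lower in SOX2-negative cells than in control (-0.74 ± 0.17, 0.0090).

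Among 12 regulators of HIF, ARNT2, a relative of ARNT, averaged 19.6 ± 5.40 CPM in SOX2-negative cells, 30.2 ± 3.23 CPM in SOX2-positive cells and 62.5 ± 0.826 CPM in controls. CITED2, which competes with HIF for its coactivators, averaged 149.8 ± 19.7 CPM in SOX2-negative cells, 83.4 ± 17.2 CPM in SOX2-positive cells and 274 ± 60.9 CPM in controls. Both were lower than control in each gate (edgeR adjusted p = 0.00046 in SOX2-negative and 0.019 in SOX2-positive cells for ARNT2, and 0.019 in SOX2-negative and 0.0016 in SOX2-positive cells for CITED2). HSP90AA1 was lower than control in SOX2-negative cells and SIAH2 in SOX2-positive cells, and CITED2, OS9 and SIAH2 were higher and ARNT2 was lower in SOX2-negative than in SOX2-positive cells (-0.62 ± 0.20 for ARNT2, edgeR adjusted p = 0.041). VHL, EGLN2 and HIF1AN, which act on the HIF proteins directly, were called in none of the 3 comparisons.

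The gates also differed in cell type markers, at 100 and 1000 ng/ml. All 5 endoderm and all 5 mesoderm markers were called higher in SOX2-negative than in SOX2-positive cells. The endoderm markers summed to 648 to 1255 CPM in SOX2-negative libraries, 7.30 to 26.9 CPM in SOX2-positive libraries and 3.91 to 7.72 CPM in controls, and SOX17 was at 0 in both controls. The mesoderm markers summed to 503 to 1079 CPM in SOX2-negative libraries, 10.3 to 35.6 CPM in SOX2-positive libraries and 12.9 to 17.2 CPM in controls. Pluripotency markers, of which 5 of 6 were lower in SOX2-negative than in SOX2-positive cells, summed to 778 to 1389 CPM in SOX2-negative libraries, 2707 to 3852 CPM in SOX2-positive libraries and 1069 to 1265 CPM in controls. Neural progenitor markers summed to 0.124 to 1.32 CPM in SOX2-negative libraries, 3.77 to 55.3 CPM in SOX2-positive libraries and 363 to 493 CPM in controls. The controls thus differ from both gates in these markers as well as in treatment. Of the 2 tested, LHX5 was called lower than control in both gates and PAX6 only in SOX2-negative cells. In SOX2-positive cells 4 of 6 pluripotency markers were higher than control. FOXA2, GATA6, SOX17 and APLNR were also higher there, and CXCR4 and HAND1 were lower. Of 3 endothelial markers, CDH5 and PECAM1 were higher in SOX2-negative than in SOX2-positive cells and none was lower. Genes of dissociation stress summed to 789 to 1737 CPM in SOX2-negative libraries, 545 to 1013 CPM in SOX2-positive libraries and 463 to 549 CPM in controls, with none of 10 called between the gates and JUN and JUNB called higher than control in SOX2-negative cells. Mitochondrially encoded genes summed to 31162 to 45276 CPM in SOX2-negative libraries, 45363 to 54892 CPM in SOX2-positive libraries and 28715 to 42387 CPM in controls. The part of these cell types, of stress and of mitochondrial RNA in the differences of the glycolysis and hypoxia genes was not tested.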

How the data were processed

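RNA of 12 libraries was sequenced as paired ends after poly-A selection, per the labels' protocols. Salmon and the build GRCh38 are named in the submitters' processing notes. A version, an annotation release and a strand setting are not given in the sources used here. The authors deposited estimated counts per gene, unscaled, 1 column per library, with totals of 16474856 to 28079048. Here rows sharing a symbol were summed (1034 symbols, of which 1, GPI, is a member) and rounded.

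Groups come from the sample titles. edgeR 4.0.16 (R 4.3.3) was used with TMM scaling, filterByExpr (minimum count 10, total 15) and the quasi-likelihood test over 7 group means, with 5 residual and 5.61 prior degrees of freedom. Alternatives were other scalings, no filter, DESeq2 1.42.0, limma 3.58.1, a replicate block, identifiers apart, fewer groups, the 300 ng/ml libraries averaged in, and each library left out. A lone library is then assumed to vary like the other groups. The tests were checked on simulated data.

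The members and lists were chosen with earlier results of these data known. Every library's CPM was given for members called between the gates or against control and for a listed set of further members. Other pathway genes were named where called. The series description speaks of a second biological repeat, and a colony sorted into its 2 gates shares its repeat number, which pairs the libraries. Deviations of same-numbered libraries from their group means had correlations from -0.06 to 0.22 (10 pairs of groups, of which 5 exceeded 0.1). P-values measure the spread between repeats of 1 cell line. Replicates differed by more than sampling noise (chi-square per degree of freedom 22.9 to 142.9). The highest value was that of the SOX2-negative pair at 100 ng/ml, which holds the library that stood apart, and the other groups reached at most 53.0. Exon overlaps were read from GENCODE 29, and promoters from RefSeq (GRCh38.p14).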

Additional observations from a re-analysis of the deposited data

How the results depend on the processing

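Between the gates, SLC2A3, SLC16A3 and MXI1 stayed called higher and HK1, HK2 and PDK3 lower in SOX2-negative cells under every alternative run. The 12 member calls became 21 with no filter and 7 to 22 with 1 library left out: 7 without SOX2-negative repeat 1 or SOX2-positive repeat 2 at 1000 ng/ml, 20 without SOX2-negative repeat 2 at 100 ng/ml and 22 without its repeat 1. Against control, the 21 calls in SOX2-negative cells ranged over 12 to 27 and the 16 in SOX2-positive cells over 7 to 24, lowest without a control library. With only the groups compared in the model, the SOX2-positive count was 27, while in SOX2-negative cells 15 calls were left, with ADM, HK2, LDHB, PFKFB3, PFKFB4 and PFKL among those lost. The same setting ended AK4 and PFKM between the gates. The dose contrast in SOX2-negative cells gave 6 member calls with no filter, 1 with DESeq2 and 0 to 19 with 1 library left out, and the difference of dose effects gave 0 to 11, both highest without SOX2-negative repeat 1 at 100 ng/ml. With the replicate block the member counts were 14 between the gates, 22 and 17 against control, and beyond the calls of AK4, ALDOC, GAPDH, LDHA, PGK1 and DDIT4 given with the results no call of a member named with its test changed.

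Over all genes, 1332 calls for SOX2-positive cells against control became 2158 with no filter, 2059 with DESeq2, 3243 with only the groups compared, and 250 to 2439 with 1 library left out. Leaving 1 out gave 2638 to 6835 around 4085 between the gates, 1749 to 6111 around 3835 for SOX2-negative cells against control, 0 to 5739 for dose in SOX2-negative cells and 0 to 3795 for the difference of dose effects. No filter and DESeq2 gave 1551 and 411 genes for dose in SOX2-negative cells, 107 and 5 in SOX2-positive cells, and 308 and 16 for the difference.

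Some differences that were not called changed sign with 1 library left out: between the gates BNIP3 (-0.2079 to 0.0501), HIF1A (-0.5523 to 0.0417) and PKM (-0.1649 to 0.2164), in SOX2-negative cells against control DDIT4 (-0.6031 to 0.3939), EPAS1 (-0.268 to 0.6256) and GPI (-0.2986 to 0.0703), and in SOX2-positive cells against control CA9 (-0.1422 to 1.055) and GAPDH (-0.0712 to 0.1536). PKM between the gates was -0.0309 with column totals and -0.0042 with 300 ng/ml averaged in. DDIT4 in SOX2-negative cells against control was -0.013 with column totals, -0.1445 with limma and -0.1465 with the replicate block. The causes were not tested. CA9, at most 1.62 CPM in any library, was called between the gates or against control under no alternative run, and its log2 difference between the gates had an SE of 0.66 at this depth.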
